A study of Mus musculus with 6 samples.

Results

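The 10 genes described here are the CC chemokines Ccl2, Ccl5, Ccl6, Ccl7, Ccl8, Ccl9, Ccl11, Ccl12, Ccl19 and Ccl21a in mouse aorta. They were chosen by symbol from the 55335 genes of the count table, at a point when earlier results of these data were known. Of the 10, 9 passed the filter on low counts and were among the 16612 genes tested. RNA had been sequenced from the aorta of 3 young mice (6 weeks old) and 3 aged mice (6 months old), all wild-type C57BL/6 without treatment. The comparison addresses which aortic transcripts differ with age in mice. According to the study's methods the mice were male, the fat around the vessel had been dissected away, and reads were single-ended. The aged mice were mature adults rather than old animals. Whole tissue was measured, so a difference in the number of cells that make a chemokine and a difference in its RNA per cell cannot be told apart.

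Chemokines are small secreted proteins that bind to heparan sulfate on cells and matrix and draw leukocytes along their gradient. The CC family is named for adjacent cysteines near the start of the mature protein. Its members act on seven-helix receptors that signal through inhibitory G proteins, and atypical receptors take chemokines up without such signalling and thereby clear them. In the artery wall, Ccl2 and its relatives recruit monocytes, Ccl11 recruits eosinophils, and Ccl19 and Ccl21a guide dendritic cells and T cells towards lymphatic vessels and lymph nodes.

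The 10 genes lie in 3 places of the mouse genome (GRCm38, GENCODE M21), and all are annotated as protein-coding. Ccl2, Ccl7, Ccl11, Ccl12 and Ccl8 follow each other on the plus strand of chromosome 11, from the start of Ccl2 at 82035571 to the end of Ccl8 at 82116799. Ccl5, Ccl9 and Ccl6 lie on the minus strand of the same chromosome, from 83525778 to 83593087. Ccl19 and Ccl21a lie on the minus strand of chromosome 4, from 42754525 to 42756577 and from 42772860 to 42773993. Ccl6, Ccl9, Ccl19 and Ccl21a have 4 exons, and the other 6 genes have 3. The coding stretch around the adjacent cysteine codons is given for 6 members, since it is what makes these genes 1 family while the bases on either side differ. Capitals mark the 2 cysteine codons, and the sequences were read 5′ to 3′ from the transcripts of GENCODE M21.

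Ccl6: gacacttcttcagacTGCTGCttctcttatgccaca

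Ccl9: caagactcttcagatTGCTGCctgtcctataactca

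Ccl8: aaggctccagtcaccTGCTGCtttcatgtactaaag

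Ccl12: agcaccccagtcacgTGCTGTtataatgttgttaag

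Ccl11: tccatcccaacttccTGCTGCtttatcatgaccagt

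Ccl19: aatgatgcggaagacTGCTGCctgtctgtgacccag

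Each of the 10 coding sequences held 1 such pair. In Ccl12 the second codon of the pair was TGT, and in the other 9 both codons were TGC. The number of cysteine codons in the whole reading frame ranged from 4 in Ccl2, Ccl11 and Ccl19 to 7 in Ccl21a, with 6 in Ccl6, Ccl9 and Ccl12.

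The total of reads counted on genes lay between 31049632 and 45832185 per library. Values are read counts and, where libraries are compared, CPM: counts per unit of library size, which is the total times a TMM factor that corrects for RNA composition. A count of 0 allows up to 3 counts, which is between 0.0619 and 0.106 CPM in these libraries, and this limit covers counting error only. Several features of the libraries move with age or set 1 library apart. The share of counts on mitochondrially encoded genes was 14.9% to 21.2% for young mice and 23.1% to 30.4% for aged mice. Young replicate 1 had 14806 counts of Xist, the RNA that silences an X chromosome in females, against 7 to 24 in the other 5 libraries, and 53 counts of the Y-linked Ddx3y against 1488 to 2117. It thus stood apart from the male mice that the methods describe, and the members' fitted differences and counts are given with and without it. Aged replicate 2 carried most brown fat RNA, with a summed level of Ucp1, Cidea and Elovl3 of 1811 CPM against 66.7 to 524 in the other 5 libraries.

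All 9 members tested had higher fitted levels in aged aorta, by 1.06 to 2.78 on the log2 scale with a median of 1.83, but none passed the threshold of 0.05 on the adjusted p of edgeR's quasi-likelihood test. Neither did any other gene (0 of 16612, or 0%), and the lowest adjusted p over all genes was 0.189. Over all genes tested, 52.1% were higher in aged aorta and the median difference was 0.02. At an unadjusted p below 0.05, 5 of the 9 members were higher (Ccl6, Ccl8, Ccl9, Ccl11 and Ccl19), where 5.56% of all genes tested were higher in aged aorta at that limit. No member was lower, where 4.82% of all genes were. The 3 aged values all lay above the 3 young values for Ccl6, Ccl8, Ccl9 and Ccl19, and 7.74% of all genes tested were separated in that direction. This number was 2 (Ccl8 and Ccl9) in the deposited FPKM and with library totals, where 3.24% and 3.05% of all genes were so separated. Groups of 2 and 3 libraries are separated more often: 8 members were without aged replicate 2, beside 17.5% of all genes, and 6 without young replicate 1, beside 15.8%. Without aged replicate 1, 3 members (Ccl6, Ccl9 and Ccl19) were higher at an unadjusted p below 0.05, beside 4.26% of all genes. Without young replicate 1 there were 6 (beside 5.9%), with Ccl12 and Ccl21a added and Ccl11 lost. DESeq2's Wald test called 4 members (Ccl6, Ccl9, Ccl11 and Ccl19) at an adjusted p below 0.05, while 1.48% of 14964 genes were called higher by it. The call of these 4 genes therefore depends on the tool. When library totals were used in place of TMM factors, the median of all genes moved to -0.22 and 432 of the 2933 genes at an unadjusted p below 0.05 were higher, against 923 of 1723 with TMM. All 9 members stayed higher under that scaling, with a median of 1.59, and the same 5 had an unadjusted p below 0.05.

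**Figure D1:**
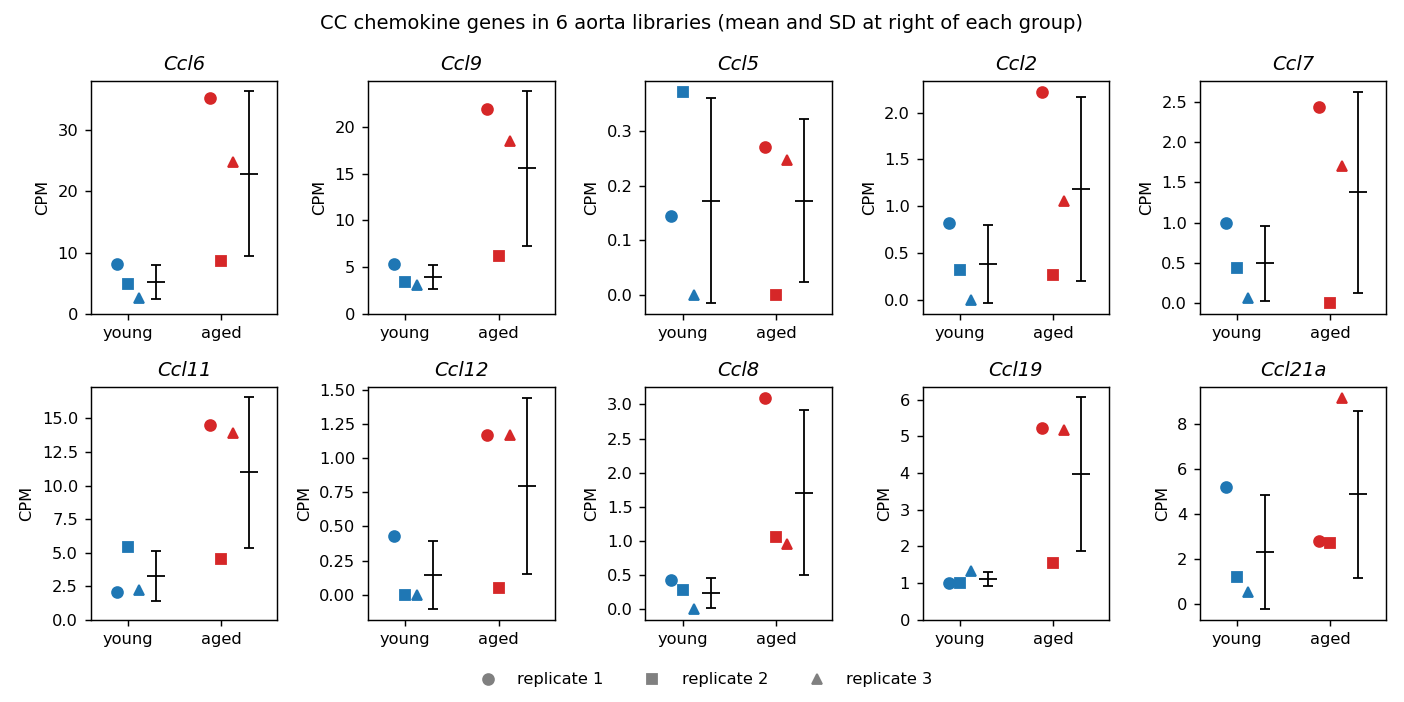
CPM of the 10 CC chemokine genes in the 3 young (blue) and 3 aged (red) aorta libraries, with a linear vertical axis of its own for each gene. Each symbol is 1 library, and the bar beside each group gives its mean and SD. Aged replicates 1 and 3 lie above every young library for Ccl6, Ccl9, Ccl11 and Ccl19, while aged replicate 2 lies close to the young libraries for these genes.

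Between genes, levels were compared as FPKM, which also divides by gene length. Over the 6 libraries, mean FPKM was highest for Ccl6 (6.74) and Ccl11 (5.70). Ccl21a (3.60), Ccl9 (2.76) and Ccl19 (2.51) were at intermediate levels. Ccl8 (1.61), Ccl7 (1.00), Ccl12 (0.724) and Ccl2 (0.577) were low, and Ccl5 was lowest at 0.145. No neighbours in this order were separated in every library: the gene placed first was the higher one in 3 to 5 of the 6 libraries. The summed FPKM of the 10 genes was 18.1, 12.7 and 6.68 in young replicates 1, 2 and 3 and 53.6, 15.6 and 45.5 in aged replicates 1, 2 and 3. Young replicate 1 exceeded aged replicate 2 in this sum, so the groups overlapped, and without young replicate 1 the sums were apart. As a sum of CPM the groups just missed overlapping, at 9.81 to 24.7 in young and 25.0 to 89.1 in aged aorta. Ccl6 made up between 20.8% and 31.3% of the summed FPKM in every library. The share of Ccl11 ranged from 10.2% to 38.6%, and that of Ccl21a from 5.12% to 31.5%.

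Ccl6 and Ccl9, chemokines that macrophages make and that act on the receptor Ccr1, had the most counts of the 10 genes. In the order of replicates 1, 2 and 3, which is kept for every gene, Ccl6 had 395, 170 and 90 counts in young aorta and 1176, 327 and 701 counts in aged aorta. As CPM this was 8.15, 4.88 and 2.62 in young and 35.4, 8.66 and 24.8 in aged aorta. The groups did not overlap, although the lowest aged value lay just above the highest young one. The mean was 5.22 ± 2.78 (SD, n = 3) for the young mice and 22.9 ± 13.4 (SD, n = 3) for the aged mice. The fitted difference was 2.13 on the log2 scale (SE 0.59, 95% interval 0.75 to 3.51), or 4.38-fold, with an adjusted p of 0.377 in edgeR and 0.00410 in DESeq2.

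Ccl9 had 260, 119 and 104 counts in young and 731, 233 and 524 counts in aged aorta. Its CPM was 5.36, 3.42 and 3.03 in young and 22.0, 6.17 and 18.5 in aged aorta, and the groups were apart in this gene as well. The means were 3.94 ± 1.25 (SD, n = 3) and 15.6 ± 8.31 (SD, n = 3). The fitted difference of 1.98 (SE 0.49, 95% interval 0.83 to 3.12) was 3.94-fold, with an adjusted p of 0.377 in edgeR and 0.00275 in DESeq2. Without aged replicate 2 the difference was 2.36 and edgeR called Ccl9 with an adjusted p of 0.0368, the only member so called under any library left out, and in that fit 0.583% of 17147 genes were called higher. Ccl6 was then at 2.52 with an adjusted p of 0.0817. Without young replicate 1 the differences were 2.62 for Ccl6 and 2.28 for Ccl9, both with an adjusted p of 0.370.

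The ratio of Ccl6 to Ccl9 in FPKM was 2.58, 2.42 and 1.46 in young and 2.73, 2.37 and 2.27 in aged aorta. It lay within a narrow range in 5 libraries, and young replicate 3, with the fewest counts of both genes, was the exception. These genes are neighbours on chromosome 11 and were the pair of members with the most alike patterns over the libraries, so the 100 bases before their start sites are shown (RefSeq, GRCm38.p6, minus strand, 5′ to 3′). Capitals mark runs of at least 8 bases that occur in the 250 bases before both genes.

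Ccl6, chr11:83593088-83593187: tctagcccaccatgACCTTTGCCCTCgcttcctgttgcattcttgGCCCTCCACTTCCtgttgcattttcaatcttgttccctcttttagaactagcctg

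Ccl9, chr11:83578637-83578736: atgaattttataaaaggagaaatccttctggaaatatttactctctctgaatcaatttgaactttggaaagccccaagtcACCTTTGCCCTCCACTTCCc

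The longest run shared by Ccl6 and Ccl9 was 13 bases. Among the other 14 pairs of the 6 members with a promoter in the table (Ccl6, Ccl8, Ccl9, Ccl12, Ccl19 and Ccl21a), the longest shared run was 9 bases. The core of the TATA box, TATAAA on the gene's strand, occurred in the 250 bases before Ccl8, Ccl9 and Ccl12 and in 7.59% of all 32851 promoters of that length. The ETS core GGAAGT on either strand occurred before Ccl6, Ccl9 and Ccl12 and in 19.7% of all promoters. The NF-kappa B pattern (GGG, any 5 bases, CC) on either strand occurred before Ccl9 and Ccl19 and in 45.8% of promoters, and the GAS pattern TTCNNNGAA occurred before none of the 6 and in 7.02% of promoters. A match describes the letters of the sequence only.

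Ccl8, Ccl12, Ccl2 and Ccl7 encode the monocyte chemoattractant proteins, of which Ccl2, Ccl7 and Ccl12 act on the monocyte receptor Ccr2 and mouse Ccl8 acts on Ccr8. All 4 were scarce, with at most 103 counts in a library. Ccl8 had 21, 10 and 0 counts in young and 103, 40 and 27 counts in aged aorta. As CPM this was 0.433, 0.287 and 0 against 3.10, 1.06 and 0.955, so the groups did not overlap. Ccl8 had the largest fitted difference of the members, 2.78 (SE 1.07, 95% interval 0.28 to 5.28), with means of 0.240 ± 0.220 (SD, n = 3) and 1.70 ± 1.21 (SD, n = 3). Its adjusted p was 0.447 in edgeR and 0.0907 in DESeq2, and without young replicate 1 the difference was 3.54. Ccl12 had 21, 0 and 0 counts in young and 39, 2 and 33 counts in aged aorta. Young replicate 1 was the only young library with any Ccl12, and at 0.433 CPM it lay above aged replicate 2 at 0.0530 CPM, which is within the limit that a count of 0 allows. The fitted difference of Ccl12 was 2.35 with an interval from -1.33 to 6.02 (adjusted p 0.625). Without young replicate 1 both remaining young libraries are at 0, and the fitted value is no measure of the fold.

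Ccl2, the main attractant of classical monocytes, had 40, 11 and 0 counts in young and 74, 10 and 30 counts in aged aorta. The CPM was 0.825, 0.316 and 0 in young and 2.23, 0.265 and 1.06 in aged aorta. Aged replicate 2 lay below young replicates 1 and 2, and the fitted difference of 1.60 had an interval from -1.28 to 4.48 (adjusted p 0.663). Ccl7 had 48, 15 and 2 counts in young and 81, 0 and 48 counts in aged aorta, that is, 0.990, 0.431 and 0.0582 against 2.44, 0 and 1.70 CPM. Aged replicate 2 and young replicate 3 were both within the limit that a count of 0 allows for Ccl7, while the other aged libraries were the highest. Its fitted difference was 1.45 with an interval from -1.90 to 4.80 (adjusted p 0.734). The intervals of Ccl2, Ccl7 and Ccl12 include both no difference and folds larger than those of Ccl6 and Ccl9. Aged replicate 1 carried much of the difference in these genes: without it the values for Ccl2 and Ccl7 were 0.76 and 0.75, and that for Ccl8 was 2.03. Without young replicate 1 Ccl2 was at 2.87 and Ccl7 at 2.47.

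Ccl11, also called eotaxin, is made by fibroblasts and smooth muscle cells and acts on the eosinophil receptor Ccr3. It had 102, 189 and 77 counts in young and 482, 171 and 393 counts in aged aorta. As CPM it was at 2.10, 5.43 and 2.24 in young and 14.5, 4.53 and 13.9 in aged aorta. Aged replicates 1 and 3 were well above all others, and aged replicate 2 lay below young replicate 2, so the groups overlapped. The means were 3.26 ± 1.88 (SD, n = 3) and 11.0 ± 5.59 (SD, n = 3) CPM. The fitted difference was 1.75 (SE 0.56, 95% interval 0.45 to 3.06), or 3.37-fold, with an adjusted p of 0.390 in edgeR and 0.0344 in DESeq2. It ranged from 1.50 to 2.34 with any 1 library left out and was 1.52 without young replicate 1.

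Ccl5, which T cells, natural killer cells and platelets supply and which acts on Ccr1 among other receptors, was at the edge of detection. It had 7, 13 and 0 counts in young and 9, 0 and 7 counts in aged aorta. Only young replicate 2 reached 10 counts, and Ccl5 was the member that failed the filter. Its mean was 0.173 ± 0.188 CPM (SD, n = 3) for the young mice and 0.173 ± 0.150 (SD, n = 3) for the aged mice, so the means differed by far less than the spread.

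Ccl19, made by stromal cells of lymphoid tissue and a ligand of Ccr7, had 49, 35 and 46 counts in young and 174, 59 and 146 counts in aged aorta. In CPM the young libraries lay close together at 1.01, 1.00 and 1.34, and the aged ones were at 5.23, 1.56 and 5.16. Relative to its mean, Ccl19 thus had the smallest spread of any member among young mice, at 1.12 ± 0.191 (SD, n = 3), against 3.99 ± 2.10 (SD, n = 3) in aged aorta, and the groups did not overlap. The fitted difference was 1.83 (SE 0.51, 95% interval 0.64 to 3.02), or 3.55-fold, with an adjusted p of 0.377 in edgeR and 0.0340 in DESeq2. Without aged replicate 2 it was 2.22 with an adjusted p of 0.0546, and without young replicate 1 it was 1.77.

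The Ccl19 values hold reads that could come from near-identical copies. Of the 696 windows of 50 bases in the Ccl19 transcript, 475 (68.2%) occur unchanged in 1 or more of the annotated copies Gm2564, Ccl19-ps3, Gm12407 and Ccl19-ps1. How the counting treated reads with several matches is not given in the sources used here. Gm2564 had 38, 46 and 0 counts in young and 184, 86 and 122 in aged aorta, and Ccl19-ps3 had 40, 48 and 0 against 195, 91 and 130. Young replicate 3 had no counts in these copies and 46 counts in Ccl19 itself. Gm12407 had 57, 45 and 26 counts in young and 161, 63 and 101 in aged aorta. Summed over Ccl19 and the 4 copies, the counts were 189, 178 and 80 in young and 753, 309 and 522 in aged aorta, and the fitted difference was 2.12 (SE 0.45, adjusted p 0.356 in edgeR). The fitted difference was thus no smaller for the sum over copies than for the Ccl19 row alone. If reads with several matches were counted on each row, the sum holds them more than once, so it is no independent check.

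Ccl21a, the other ligand of Ccr7, is made by lymphatic endothelium and by stroma of lymph nodes. It had 253, 42 and 18 counts in young and 93, 102 and 259 counts in aged aorta, or 5.22, 1.21 and 0.524 against 2.80, 2.70 and 9.16 CPM. Young replicate 1 was the second highest of the 6 libraries, so the groups overlapped, and the order of libraries differed from that of the other members, with aged replicate 3 and not aged replicate 1 at the top. The fitted difference of 1.06 (SE 0.87) had an interval from -0.98 to 3.10 (adjusted p 0.682). It turned on single libraries: without young replicate 1 it was 2.50 (adjusted p 0.397), with no overlap of the groups, and without aged replicate 3 it was 0.24.

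Mice carry several copies of the Ccl21 gene, and 588 of the 821 windows of 50 bases in Ccl21a (71.6%) occur in another annotated gene. Gm21541 shared 588 of them, Gm13304 579, and Ccl21b and Gm10591 253 each. The coding sequences of Ccl21a and Ccl21b, 399 bases each, differed at 2 positions, T84A and C194T, counted from 1 at the first base of the start codon with the base of Ccl21a first. The stretch around the latter, from position 174 to 214, shows how little separates these 2 coding sequences, with the differing base in capitals.

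Ccl21a: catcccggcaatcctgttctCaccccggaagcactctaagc

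Ccl21b: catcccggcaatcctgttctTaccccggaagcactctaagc

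The copies were nevertheless counted at different levels in some libraries. Ccl21b had 52, 45 and 28 counts in young and 46, 47 and 70 counts in aged aorta. Gm21541, Gm13304 and Gm10591 stayed close to it, within 19 to 67 counts in every library. The ratio of Ccl21a to Ccl21b counts was 4.87, 0.933 and 0.643 in young and 2.02, 2.17 and 3.70 in aged aorta. Young replicates 2 and 3 thus had no more reads on Ccl21a than on Ccl21b, whereas young replicate 1 had 201 and aged replicate 3 had 189 reads more. Summed over Ccl21a and these 4 copies, the fitted difference was 0.91 (SE 0.48, adjusted p 0.548 in edgeR), and the groups overlapped, with 436, 205 and 113 counts in young and 268, 288 and 525 in aged aorta. The limit given for the Ccl19 sum holds for this sum too. None of the windows of Ccl2, Ccl5, Ccl6, Ccl7, Ccl8, Ccl11 and Ccl12 occurred in another gene, and 2.0% of those of Ccl9 did.

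**Figure D2:**
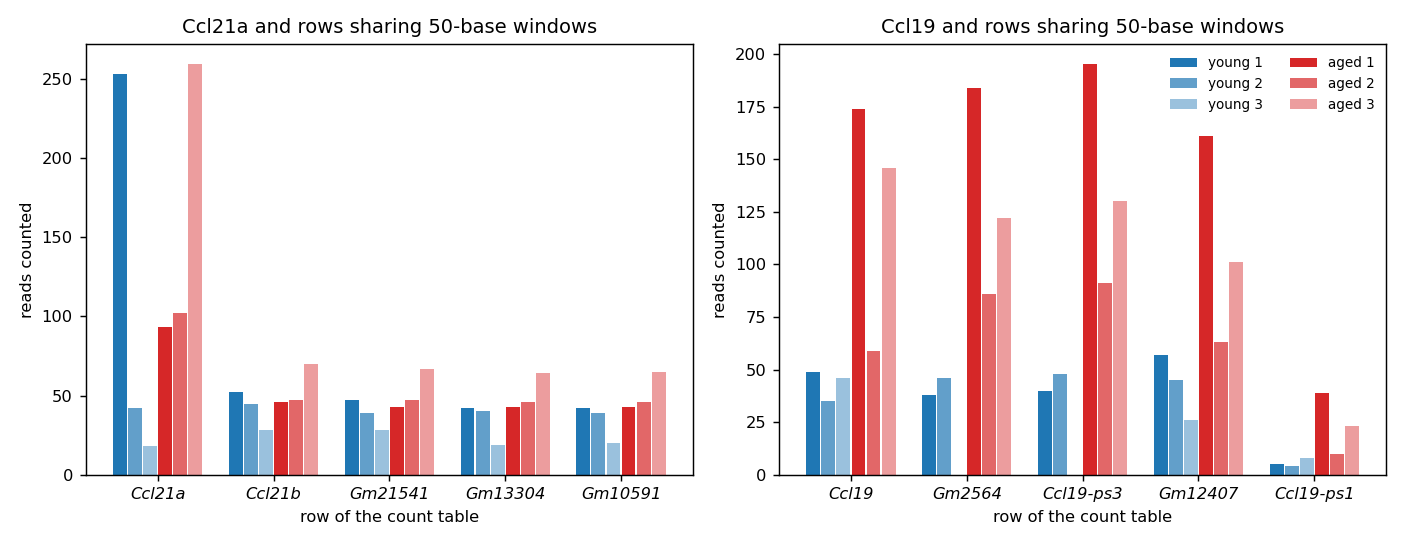
Reads counted on Ccl21a (left) and Ccl19 (right) and on the rows of the count table that share 50-base windows with them, 1 bar for each of the 3 young (blue) and 3 aged (red) libraries. Ccl21a exceeds its copies in young replicate 1 (253 counts) and in the aged libraries, whereas the copies of Ccl19 follow Ccl19 except in young replicate 3, where Gm2564 and Ccl19-ps3 have 0 counts.

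The scatter of the members over the libraries was described with log2 CPM (prior count 1) centred on each gene's own mean. The distance of a pair of genes is the root mean square difference of these values over the 6 libraries. The closest members were Ccl6 and Ccl9 (0.291), followed by Ccl9 and Ccl19 (0.370) and by Ccl11 and Ccl19 (0.515). Ccl7 and Ccl8 were farthest apart (2.34), and both rest on few counts. Aged replicate 1 held the highest value of all 6 libraries for 7 of the members tested (Ccl2, Ccl6, Ccl7, Ccl8, Ccl9, Ccl11 and Ccl19). Aged replicate 3 was highest for Ccl21a and level with aged replicate 1 for Ccl12, both at 1.17 CPM.

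**Figure D3:**
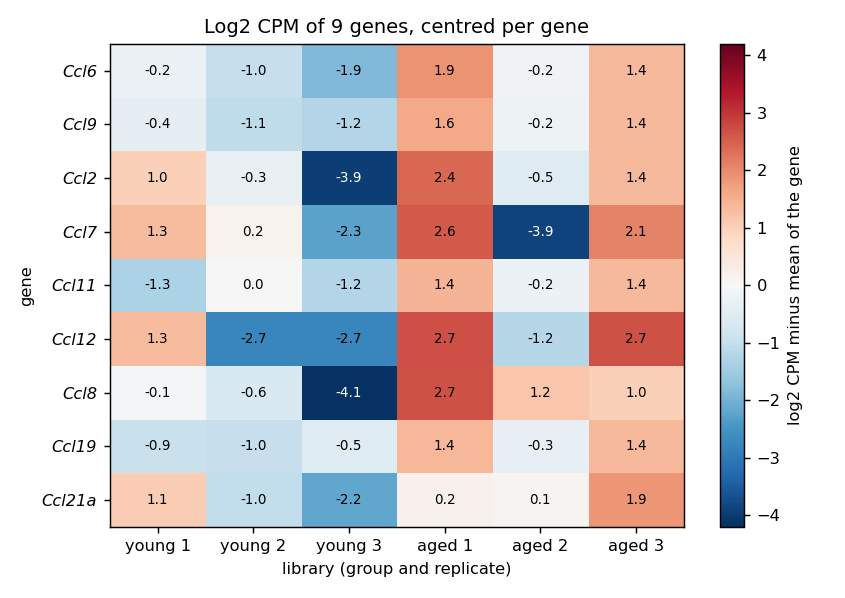
Log2 CPM (prior count 1) of the 9 members tested, minus the mean of each gene over the 6 libraries, with genes as rows and libraries as columns. Red marks values above and blue values below the gene's mean, and aged replicates 1 and 3 are above the mean for all 9 genes, while aged replicate 2 is above it for Ccl8 and Ccl21a.

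Among all genes tested, the patterns nearest to Ccl6 were those of Begain (0.200) and Wfdc17 (0.245). Nearest to Ccl9 were C1qb (0.206), a subunit of complement C1q that macrophages make, and Medag (0.242). For Ccl11 they were Islr2 (0.149) and Gpr39 (0.150), and for Ccl19 Runx2 (0.109), a transcription factor of bone-forming cells, and Ms4a4d (0.109). Ttc9 (0.296) and Pcdhgb4 (0.298) were nearest to Ccl21a. The distances were larger for the members with few counts. Nearest were Hs3st3a1 (0.453) and Ifi208 (0.492) for Ccl2, and Tfpi2 (0.485) and Gm5834 (0.959) for Ccl7. Tssk4 (0.495) and Pclaf (0.656) were nearest to Ccl8, and Fitm1 (0.867) and Ccr1 (0.874) to Ccl12. The distance is not scaled to a gene's own range. That range was 5.44 to 6.82 on the log2 scale for Ccl2, Ccl7, Ccl8 and Ccl12, and 2.35 to 4.06 for the other members tested. All such distances are over the same 6 libraries and are descriptions only.

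Of the 15 receptors of CC chemokines and their atypical relatives, 10 were tested and 9 had a higher fitted level with age, at a median log2 difference of 0.93, but 6 of 10 with library totals, under which Ccr2, Ccr10 and Ccrl2 turned lower. Leaving out young replicate 1, 9 of 10 were higher and 2 at an unadjusted p below 0.05. Only Ackr2, the atypical receptor that takes up inflammatory CC chemokines, was higher at an unadjusted p below 0.05. It was at 0.742, 1.18 and 1.46 CPM in young and 3.37, 2.09 and 3.75 CPM in aged aorta, without overlap, and differed by 1.45 (SE 0.42, adjusted p 0.380 in edgeR). Ccr1, the receptor of Ccl6 and Ccl9, had 17, 0 and 0 counts in young and 35, 13 and 29 in aged aorta, with a difference of 2.65 (SE 1.33, adjusted p 0.534). Ccr2, on which Ccl2, Ccl7 and Ccl12 act, differed by 0.00 (SE 0.62), with 51, 45 and 11 counts in young and 22, 32 and 33 in aged aorta. Ccr3, the receptor of Ccl11, and Ccr8, that of Ccl8, had 0 counts in every library. Ccr7, the receptor of Ccl19 and Ccl21a, was named for that role after its values were seen, and had at most 13 counts in a library and was not tested.

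Ackr3, the most abundant of the atypical receptors, clears the CXC chemokine Cxcl12. It was at 50.4, 40.9 and 33.0 CPM in young and 101, 31.1 and 102 CPM in aged aorta, a difference of 0.91 (SE 0.43, adjusted p 0.517). Aged replicate 2 was the lowest aged library, as for most members. Ackr4, which takes up Ccl19 and Ccl21a, was at 0.660, 0.546 and 1.57 CPM in young and 1.83, 0.503 and 5.16 CPM in aged aorta and differed by 1.43 (SE 0.84). Ackr1, which holds chemokines on venules and red cells, differed by 0.95 (SE 0.86), Ccrl2 by 0.20 (SE 0.25), Ccr10 by 0.13 (SE 0.44) and Ccr9 by -1.53 (SE 1.13), none with an adjusted p below 0.65.

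Of 14 further CC chemokines, 13 were in the table and 5 were tested, with a median difference of 0.10, 3 higher and 2 lower (2 higher with library totals or without young replicate 1, where Ccl25 turned lower). Ccl27a, an epithelial chemokine, was at 11.8, 14.8 and 12.2 CPM in young and 10.2, 12.2 and 10.1 CPM in aged aorta and differed by -0.26 (SE 0.19, adjusted p 0.661). Ccl28, a mucosal chemokine, had 37, 23 and 25 counts in young and 9, 3 and 13 counts in aged aorta. It was separated downwards, as were 1457 of all 16612 genes tested. Its difference was -1.42 (SE 0.69, unadjusted p 0.0784, adjusted p 0.528 in edgeR), opposite in sign to those of the members. Ccl24, a further ligand of the eosinophil receptor, differed by 0.74 (SE 0.63) and Ccl25 by 0.10 (SE 0.36), with overlapping groups. Ccl21b differed by 0.68 (SE 0.45). Ccl1, Ccl4, Ccl20 and Ccl26, named after their values were seen, had 0 counts in all 6 libraries. The summed level of the 13 genes was 16.6 to 21.1 CPM in young and 16.9 to 18.3 CPM in aged aorta. Ccl27a made up most of this sum in every library. The 10 members summed to 9.81 to 24.7 CPM in young and 25.0 to 89.1 CPM in aged aorta, with means of 17.3 and 63.6 CPM.

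Of 20 genes for signalling below these receptors, 18 were tested, 11 of them were higher (7 with library totals, 12 without young replicate 1) and the median difference was 0.14. The 3 with the smallest p were all higher. Rgs2, which switches off G proteins, differed by 1.36 (SE 0.34, unadjusted p 0.00492, adjusted p 0.377) and did not overlap. Its highest value lay in aged replicate 2 (140 CPM), the aged library in which most members were lowest. Gng2, a G protein gamma subunit, differed by 0.85 (SE 0.35) and Elmo1, which activates Rac in migrating cells, by 0.66 (SE 0.28), both with an adjusted p above 0.47. No gene of this list was lower at an unadjusted p below 0.05, beside 4.82% of all genes, but 4 were with library totals. Under that scaling 2933 of all 16612 genes had an unadjusted p below 0.05, and only 432 of these were higher.

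**Figure D4:**
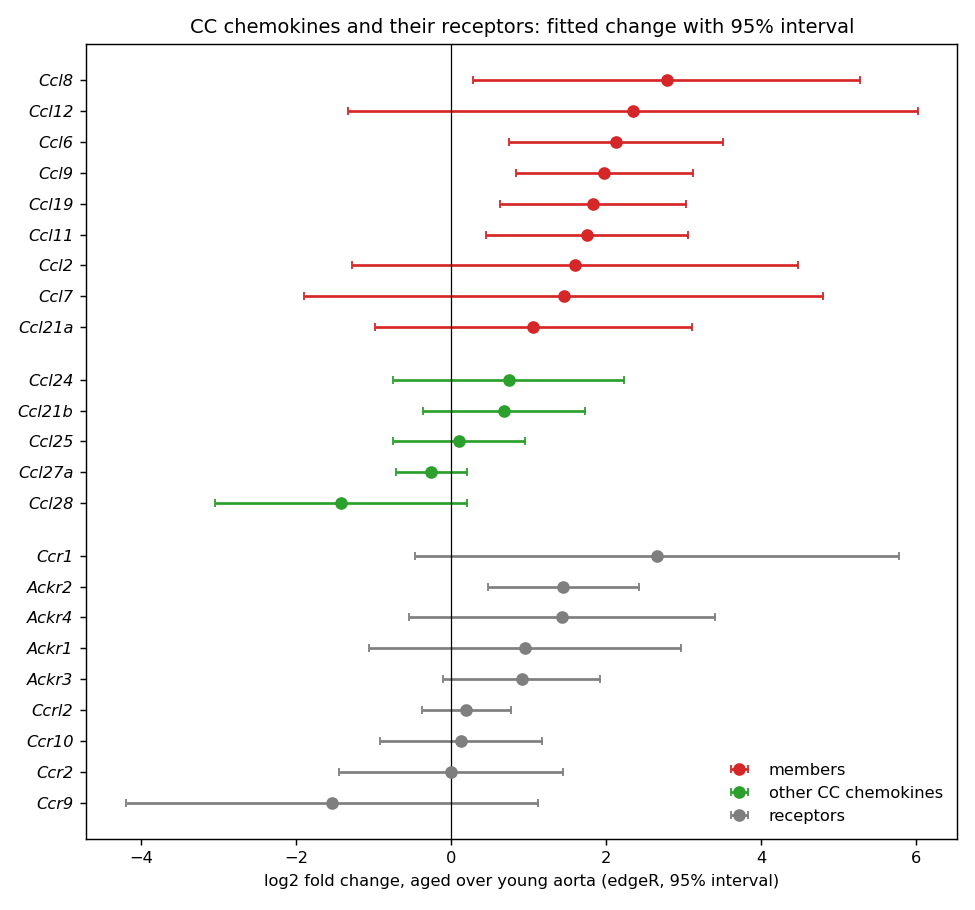
Fitted log2 difference of aged over young aorta from edgeR with its 95% interval, for the 9 members tested (red), 5 other CC chemokines (green) and 9 of the receptors (grey), sorted within each set. The vertical line marks no difference: all 9 members lie to its right, and the intervals of Ccl8, Ccl6, Ccl9, Ccl19 and Ccl11 do not reach it before adjustment.

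Marker genes of several cell types moved with age in the same libraries. Of 13 macrophage markers, 13 were higher in aged aorta, 11 at an unadjusted p below 0.05, with a median of 1.40 (12 higher with library totals or without young replicate 1, where Mertk turned lower). Their summed level was 169 to 201 CPM in young and 268 to 383 CPM in aged aorta, without overlap. C1qa and C1qb, subunits of complement C1q, differed by 1.59 (SE 0.49) and 1.70 (SE 0.48), whereas Mertk, a receptor for the uptake of dying cells, differed by 0.02 (SE 0.37). Mertk was the largest part of the macrophage sum in every library. It was at 70.1, 98.0 and 129 CPM in young and 64.0, 158 and 79.6 CPM in aged aorta. Of 8 fibroblast markers, 7 were higher (6 with library totals, where Col1a1 turned lower) and 5 at an unadjusted p below 0.05, with a median of 1.39 and sums of 4448 to 5719 and 3138 to 10151 CPM. Dcn, a proteoglycan, differed by 1.45, but the collagens Col1a1 and Col3a1 differed by 0.17 and -0.28. All 6 lymphatic markers were higher, 3 at an unadjusted p below 0.05, with a median of 1.08 and sums of 14.2 to 25.1 and 25.6 to 82.7 CPM. These 3 were Pdpn (1.75), Lyve1 (1.45, which is also on the macrophage list) and Mmrn1 (1.31). Prox1, the factor that defines lymphatic endothelium, had 55, 7 and 14 counts in young and 22, 17 and 30 counts in aged aorta, and so shared with Ccl21a its high value in young replicate 1. Without young replicate 1, 11 macrophage, 2 fibroblast and 2 lymphatic markers were higher at an unadjusted p below 0.05. The part of these cell types in the chemokine values was not tested.

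The remaining lists were less uniform. The 5 blood endothelial markers were all higher, none at an unadjusted p below 0.05, and aged replicate 3 stood out with a sum of 1562 CPM against 317 to 461 CPM in the other libraries, of which Pecam1 made up 869 and Vwf 404 CPM. Pecam1 differed by 1.00, Cdh5 by 0.66 and Tie1 by 1.11. All 5 smooth muscle markers had a fitted level below that of young aorta, 2 of them (Myh11 and Smtn) at an unadjusted p below 0.05. Myh11 differed by -0.44 (SE 0.18) and Smtn by -0.61 (SE 0.23). The most abundant, Acta2 and Tagln, differed by -0.19 (SE 0.21) and -0.015 (SE 0.19), so Tagln was nearly level. The median of the list was -0.19, with sums of 30946 to 39205 CPM in young and 27213 to 32623 CPM in aged aorta. Markers of lymphoid cells were close to absent. The 7 T cell genes, led by Cd2, Lck and Cd3g, summed to at most 6.78 CPM, and the 4 B cell genes, led by Cd79b and Cd79a, to at most 5.25 CPM, both in young replicate 2. Of 5 lymph node stroma genes, Cxcl13 and Il7 were tested, and Glycam1 of high endothelial venules had 11 counts in young replicate 1 and 0 in the other 5 libraries. The 5 neutrophil genes summed to 0.371 to 1.69 CPM in young and 2.47 to 4.07 CPM in aged aorta, with S100a9, S100a8 and Csf3r leading, Csf3r higher at an unadjusted p of 0.0397 and the defining Ly6g at 0 in every library. Of the 5 adipocyte genes, led by Cfd, Adipoq and Cidec, 2 were higher (3 without young replicate 1) and none had an unadjusted p below 0.05. Without young replicate 1 the endothelial and smooth muscle lists kept their directions, and Csf3r and the other neutrophil genes had no unadjusted p below 0.05. The share of these cell types in the members' values was not tested either, and neither was that of mitochondrial RNA.

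**Figure D5:**
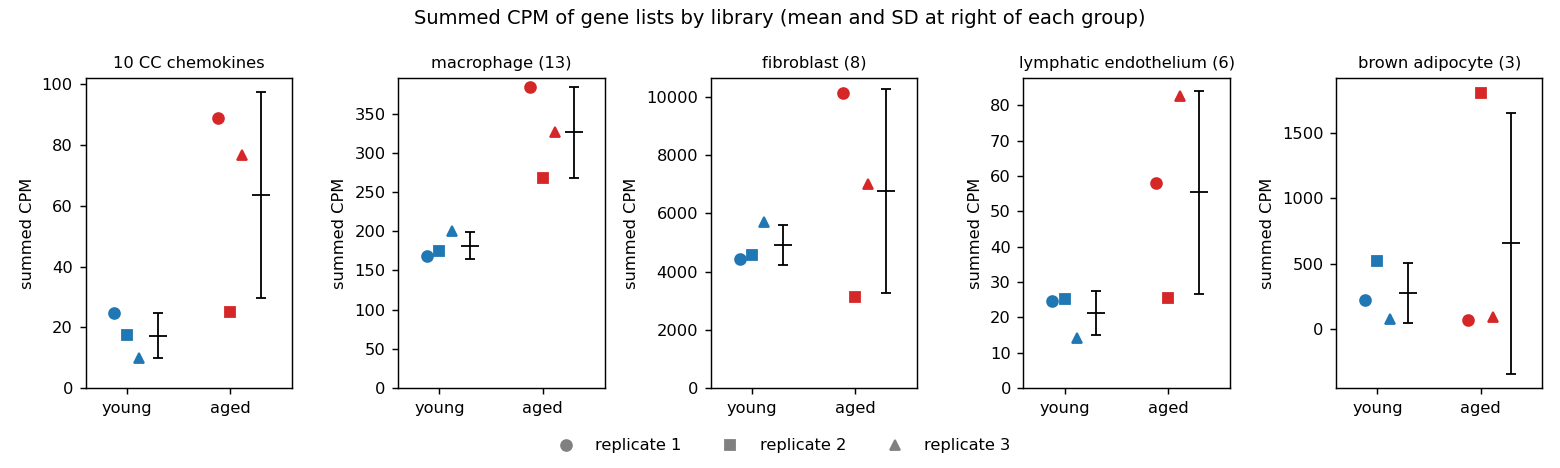
Summed CPM by library of the 10 CC chemokines and of the macrophage, fibroblast, lymphatic endothelial and brown adipocyte lists (number of genes in brackets), with symbols for the 3 replicates and the mean and SD of each group beside them. Aged replicates 1 and 3 are highest for the first 4 sums, and aged replicate 2 is highest for the brown adipocyte genes at 1811 CPM. Mertk, which differed by 0.02, is the largest part of the macrophage sum in every library.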

How the data were processed

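Bulk RNA-seq of aorta from 3 young and 3 aged mice was used, grouped by the age in the labels. The authors deposited a table of read counts per gene, whole and not normalized, and a table of FPKM. The submitters' processing notes name the mm10 build, whereas the aligner and counting tool are not given in the sources used here. Ensembl identifiers were looked up in GENCODE M21 (GRCm38), where 55154 of 55335 were found. Ccl2, Ccl6, Ccl19 and Ccl21a overlap a gene on the opposite strand, and whether counting used strand is not stated.

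Counts were filtered (filterByExpr, minimum count 10, minimum total 15), scaled by TMM and fitted with edgeR 4.0.16 in R 4.3.3 (quasi-likelihood, no covariates, Benjamini-Hochberg over all genes tested, threshold 0.05). Standard errors are the log2 difference over the root of F. P values are two-sided and measure the spread between these mice, 1 library each. Replicates of a group differed by more than counting noise in 64.8% to 76.3% of genes. The members and lists were chosen with earlier results of these data known. Named are all members, other CC chemokines and receptors with a mean of at least 10 counts, the 3 signalling genes with the smallest p, the 3 most abundant genes of each cell type list in FPKM, and the 2 genes of most alike pattern. The values of 2 genes that this rule takes in are not reported here. Alternatives were RLE factors, library totals, 2 other filters, limma 3.58.1 on log2 values of FPKM (1 or 0.1 added first), DESeq2 1.42.0, a replicate block, leaving out single libraries and sums over gene copies. Of the last, sums over rows that share 50-base windows, the read length in the study's methods, were chosen after seeing the data. On simulated counts for 16612 genes, the fit recovered 12.2% of genes changed 2-fold and 77.9% of those changed 4-fold, with 7 false calls. The simulated spread between mice was set by expression level alone, with no spread particular to a gene and no library set apart. These shares therefore do not measure recovery in the real libraries.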

Additional observations from a re-analysis of the deposited data

How the results depend on the processing

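All 125 alternative values for the 9 members tested had the same sign as the reported ones. Ccl5, which failed the filter, is not among them. With no filter on low counts 10 members were fitted and 1 was lower, and DESeq2 gave Ccl5 a difference of -0.011. The count of members called at an adjusted p below 0.05 was 0 as reported, 4 with DESeq2 (Ccl12 had no adjusted p there), and 0 to 1 with 1 library left out, where the call was Ccl9 without aged replicate 2, a fit that called 110 of 17147 genes. Members higher at an unadjusted p below 0.05 numbered 5, and 3 to 6 with 1 library left out, the lowest without aged replicate 1. Members whose groups did not overlap numbered 4, but 2 with library totals in place of TMM factors, 2 in the deposited FPKM (Ccl8 and Ccl9 in both), and 4 to 8 with 1 library left out, the highest without aged replicate 2 and 6 without young replicate 1. Library totals moved the median of all genes to -0.22, and FPKM with a pseudocount of 0.1 to -0.19, while 5 members remained higher at an unadjusted p below 0.05 under each. The tests are unpaired. With the replicate number as a block, 0 members were called and 4 were higher at an unadjusted p below 0.05. Same-numbered mice deviated together only weakly (correlations 0.079, 0.134 and 0.128), so the numbers were not taken to pair mice. Ccl2, Ccl5, Ccl7, Ccl8 and Ccl12 had a mean below 34 counts a library, and the part of depth in the width of their intervals was not tested.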
